A study of Mus musculus with 17 samples.

Results

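Glucocorticoid-induced target genes are genes that cells transcribe more when the glucocorticoid receptor is occupied by its hormone. The 10 examined here were chosen by name, as genes known to be induced in this way: Sgk1, Tsc22d3, Zbtb16, Pdk4, Mt1, Mt2, Cdkn1a, Sult1a1, Plin4 and Ddit4. They are 10 of 36293 genes listed for the bulk libraries and of 36464 genes listed for the single-nucleus libraries. Their behaviour under chronic unpredictable stress (CUS) was examined in nuclei of the mouse cortex.

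The animals were male C57BL/6 mice (of the J substrain, per the methods) with no transgene named in the labels. CUS mice received several different stressors each day for 12 days, and control mice were kept in another room and handled. Bulk nuclear RNA-seq covered 4 control and 5 CUS mice, labelled as cortex at postnatal day 90 and described in the methods as medial prefrontal cortex (mPFC) punches. Single-nucleus RNA-seq (sNucDrop-seq) covered the neocortex of 4 control and 4 CUS mice at postnatal day 80. The labels place collection 24 h after the final stressor, whereas the methods place the bulk collection 24 h after a last behavioural test. Each library came from 1 mouse, and both experiments measured RNA in nuclei, which is rich in unspliced transcripts.

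Corticosterone, the main glucocorticoid of mice, crosses into the brain and binds the mineralocorticoid receptor (Nr3c2) with high affinity and the glucocorticoid receptor (Nr3c1) with lower affinity. The bound receptors enter the nucleus and sit on glucocorticoid response elements, which are inverted repeats of a short half-site separated by a spacer. Several targets feed back on the pathway: Fkbp5 encodes a chaperone partner that lowers the receptor's affinity for hormone, and Tsc22d3 encodes GILZ, a mediator of glucocorticoid effects on inflammation. In the brain, many of these targets are best known from astrocytes, oligodendrocytes and blood vessels.

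The promoters of 9 of the 10 genes were at hand as reference sequence (RefSeq, GRCm38.p6, the assembly also called mm10, to which the reads were mapped), each running from 250 bases before to 50 bases after an annotated start site, 300 bases in all. The windows were searched on both strands, with overlaps allowed, for 5 motifs: the half-site AGAACA, the full inverted repeat (AGAACA, then any 3 bases, then TGTTCT), a looser repeat (GNACA, any 3 bases, TGTNC), and the metal response cores TGCACNC and TGCGCNC, which zinc and other metals use to drive metallothionein genes through the factor MTF1. The half-site lies inside the full repeat, and the looser form overlaps it. The promoters below are shown because the results turn on these genes, and Sgk1 and Tsc22d3 have several annotated starts. For Sgk1 the window with the full repeat is shown, and 2 other Sgk1 windows held a half-site; for Tsc22d3 the window with a half-site is shown. Capitals mark motif letters, and each sequence is on its gene's strand, 5′ to 3′. Sgk1 is at chr10:21993640-21993939 (plus strand), Tsc22d3 at chrX:140600473-140600772 (minus), Mt2 at chr8:94172368-94172667 (plus), Mt1 at chr8:94178839-94179138 (plus) and Plin4 at chr17:56109733-56110032 (minus).
Sgk1: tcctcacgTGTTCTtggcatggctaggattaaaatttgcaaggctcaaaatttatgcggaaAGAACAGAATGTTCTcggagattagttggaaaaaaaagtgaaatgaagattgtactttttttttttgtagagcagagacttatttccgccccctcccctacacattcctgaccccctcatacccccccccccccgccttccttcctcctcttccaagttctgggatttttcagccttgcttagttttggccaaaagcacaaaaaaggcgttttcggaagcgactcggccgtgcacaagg
Tsc22d3: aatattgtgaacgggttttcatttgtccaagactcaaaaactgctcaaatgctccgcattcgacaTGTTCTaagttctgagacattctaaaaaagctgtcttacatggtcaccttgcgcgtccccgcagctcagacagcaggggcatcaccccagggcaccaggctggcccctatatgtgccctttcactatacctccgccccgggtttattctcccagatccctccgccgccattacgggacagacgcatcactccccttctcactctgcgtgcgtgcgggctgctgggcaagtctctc
Mt2: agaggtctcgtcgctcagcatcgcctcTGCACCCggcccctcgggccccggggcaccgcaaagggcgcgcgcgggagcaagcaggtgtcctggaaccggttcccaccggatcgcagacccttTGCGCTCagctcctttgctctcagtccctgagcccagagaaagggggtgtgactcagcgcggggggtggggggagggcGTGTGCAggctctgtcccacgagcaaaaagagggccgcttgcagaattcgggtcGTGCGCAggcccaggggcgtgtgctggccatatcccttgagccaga
Mt1: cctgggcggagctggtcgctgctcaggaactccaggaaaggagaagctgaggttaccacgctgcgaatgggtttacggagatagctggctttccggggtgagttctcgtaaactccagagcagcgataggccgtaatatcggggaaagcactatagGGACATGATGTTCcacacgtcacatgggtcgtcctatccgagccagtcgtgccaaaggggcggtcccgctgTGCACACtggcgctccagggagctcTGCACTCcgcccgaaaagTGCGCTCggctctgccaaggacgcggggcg
Plin4: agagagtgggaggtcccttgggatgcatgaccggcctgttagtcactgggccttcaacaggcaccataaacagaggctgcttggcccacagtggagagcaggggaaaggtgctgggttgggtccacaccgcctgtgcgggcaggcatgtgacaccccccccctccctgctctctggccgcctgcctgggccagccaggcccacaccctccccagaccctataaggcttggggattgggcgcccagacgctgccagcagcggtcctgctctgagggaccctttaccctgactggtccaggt

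The Sgk1 promoter held the full repeat, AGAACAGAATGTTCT, with its first base 189 bases before the start site, and 3 of all 32851 promoters of this length (0.00913%) held one. The looser form was present in 156 promoters (0.475%), among them that of Sgk1 and that of Mt1, where GGACATGATGTTC began 94 bases before the start. A half-site was common, in 19.0% of all promoters. It occurred in 5 of the 17 windows searched for the 9 genes, which belonged to Sgk1, Tsc22d3 and Sult1a1. Metal response cores of the TGCACNC form occurred in 12.6% of all promoters and at 2 places in each of those of Mt1 and Mt2. The TGCGCNC form was in 15.4% of all promoters and in promoters of Mt1, Mt2, Sgk1 and Ddit4. None of these 5 motifs was in the Plin4 window. These are matches of letters in a window of 300 bases and say nothing of whether a receptor sits there.

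In the bulk libraries, 26188825 to 30525015 reads fell on genes in each mouse. All 10 genes passed the filter on low counts, and none passed the test between CUS and control at an adjusted p of 0.05 (edgeR's quasi-likelihood test, Benjamini-Hochberg over 18394 genes), against 3.29% of all genes tested. Before adjustment, 1 of the 10 had p under 0.05, Mt1, against 21.5% of all genes. With the likelihood ratio test the count was also 0, and with DESeq2 it was 1, again Mt1. The median log2 fold change of the 10 was -0.01, beside 0.01 over all genes, and 6 were negative and 4 positive. Without control replicate 4 the median was 0.18, with 4 negative and 6 positive. It was -0.12 without control replicate 1 and -0.095 without CUS replicate 5, each with 7 negative and 3 positive. In each of the 10 the values of CUS and control mice overlapped, while 8.76% of all genes had groups that did not overlap. Levels below are in CPM (reads-per-million) after TMM scaling, which adjusts for the composition of each library. In bulk tissue, fewer cells of a type and less RNA per cell cannot be told apart.

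**Figure D1:**
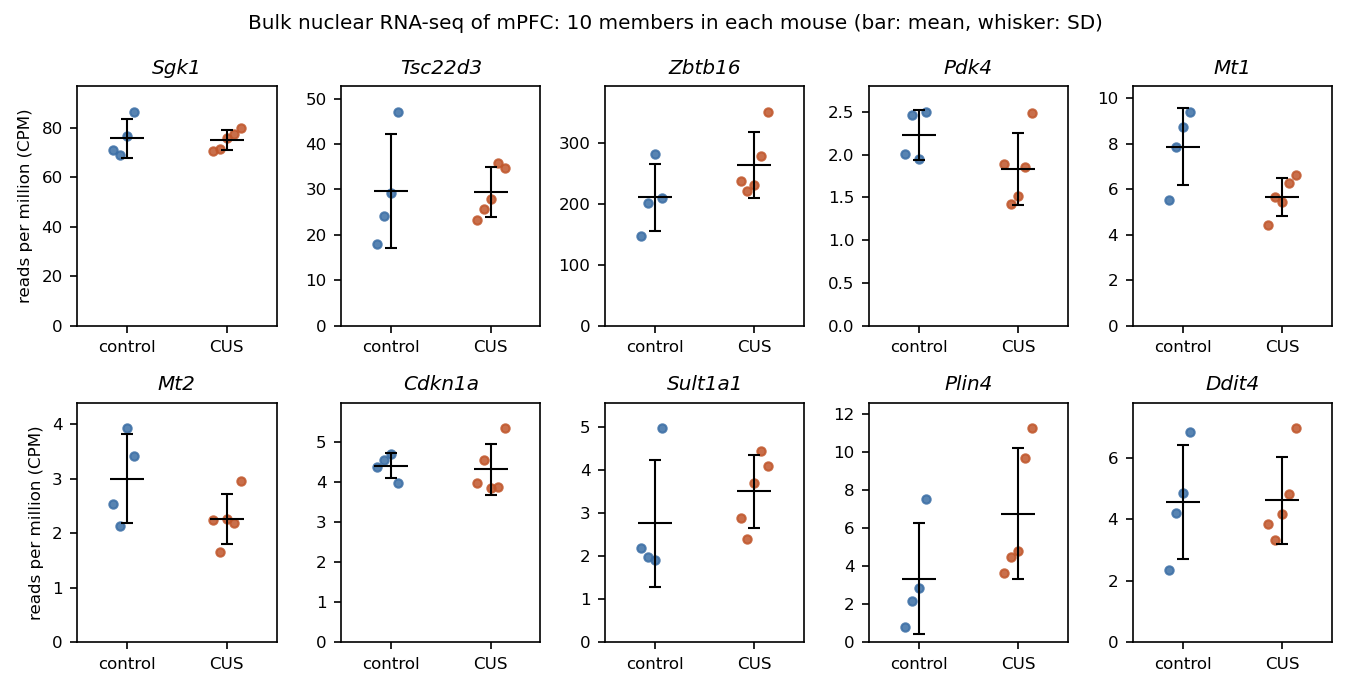
Level of each of the 10 genes in bulk mPFC nuclei (y axis, CPM, starting at 0) in 4 control and 5 CUS mice, 1 point per mouse, with the group mean as a bar and the SD as whiskers. The groups overlap in all 10 panels, and Plin4 spans the widest range, from 0.831 to 11.3 CPM.

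Sgk1, a kinase that regulates ion channels and transporters and sits at chr10:21882184-21999903, was among the steadiest of the 10. Its levels were 70.9, 69.1, 76.5 and 86.4 CPM in control mice and 70.7, 71.3, 75.8, 77.3 and 79.9 CPM in CUS mice. All CUS values lay inside the control range, and the log2 fold change was -0.01 (SE 0.07, adjusted p = 0.936).

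Tsc22d3 and Zbtb16 encode transcriptional regulators, of which Tsc22d3 (chrX:140539528-140600659) encodes GILZ and Zbtb16 (chr9:48654297-48836222) encodes the zinc finger factor PLZF. Tsc22d3 stood at 18, 24.2, 29.2 and 47.1 CPM in control mice and at 23.4, 25.8, 27.9, 35.8 and 34.7 CPM in CUS mice. The control mice alone spread further than the CUS mice, and the fold change was again -0.01 on the log2 scale (SE 0.22, adjusted p = 0.989). Zbtb16 was at 147, 202, 282 and 210 CPM in controls and at 237, 220, 230, 279 and 351 CPM after CUS. All 5 CUS mice lay above the control mean of 210 ± 55.3 CPM (SD, n = 4), but 1 control mouse exceeded 4 of them. The log2 fold change of Zbtb16 was 0.32 (SE 0.17, unadjusted p = 0.0767, adjusted p = 0.287 by edgeR) and did not pass. It was 0.18 without control replicate 1, 0.49 without control replicate 3 and 0.20 without CUS replicate 5, and passed in none of these.

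Plin4, Pdk4 and Sult1a1 act in metabolism. Plin4 (chr17:56100591-56109803), a coat protein of lipid droplets, had the largest fitted change of the 10. Its levels were 0.831, 2.16, 2.88 and 7.56 CPM in control mice and 3.63, 4.50, 4.78, 9.67 and 11.3 CPM in CUS mice. Every CUS mouse lay above the control mean of 3.36 ± 2.93 CPM (SD, n = 4), and control replicate 4 lay above 3 of the 5 CUS mice. This gave a log2 fold change of 1.00 (SE 0.48, unadjusted p = 0.0598, adjusted p = 0.254 by edgeR). Without control replicate 4 it was 1.80 with an adjusted p of 0.0496, so 1 control mouse decided that call. Pdk4 (chr6:5483351-5496309), a kinase that holds back pyruvate entry into the citric acid cycle, was low, at 2.00, 2.46, 1.94 and 2.5 CPM in controls and 1.88, 1.42, 1.52, 1.86 and 2.48 CPM after CUS. Below the control mean were 4 of 5 CUS mice, and the log2 fold change of -0.28 (SE 0.18) had an adjusted p of 0.388. Sult1a1 (chr7:126672865-126676432), a sulfotransferase for phenols, was at 2.19, 1.99, 1.90 and 4.97 CPM in controls and 2.88, 2.41, 3.70, 4.44 and 4.10 CPM in CUS mice. Control replicate 4 was the highest of all 9 mice, and the log2 fold change was 0.34 (SE 0.28, adjusted p = 0.520). Without that mouse it was 0.80 (adjusted p = 0.0544), and without control replicate 2 or 3 it was 0.20 or 0.19.

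The metallothioneins Mt1 (chr8:94179082-94180327) and Mt2 (chr8:94172664-94173568) encode small cysteine-rich proteins that bind zinc and copper, and lie 5513 bases apart on the same strand. Mt1 was at 5.51, 7.85, 8.74 and 9.41 CPM in control mice and at 4.44, 5.64, 5.46, 6.26 and 6.61 CPM in CUS mice. Above every CUS mouse were 3 of the 4 controls, and the lowest control lay among the CUS mice. The log2 fold change of Mt1 was -0.47 (SE 0.15, unadjusted p = 0.00862, adjusted p = 0.100 by edgeR). The call turned on 1 mouse and on the tool: without control replicate 1 the log2 fold change was -0.61 with an adjusted p of 0.0233, and DESeq2 gave an adjusted p of 0.0414. Mt2 was at 2.53, 2.12, 3.92 and 3.42 CPM in controls and at 2.24, 1.66, 2.26, 2.19 and 2.96 CPM in CUS mice, a log2 fold change of -0.40 (SE 0.20, adjusted p = 0.266), which was -0.26 without control replicate 3. In neither gene did a CUS mouse reach the mean of the controls. Summed astrocyte markers ranged from 2424 to 2816 CPM in control and from 2190 to 2548 CPM in CUS mice (1359 to 1521 and 1061 to 1344 CPM, without overlap, when Slc1a2, the most abundant, is left out), with 8 of 9 markers negative and 3 called lower in CUS, and their part in the Mt1 and Mt2 values was not tested.

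Cdkn1a (chr17:29090979-29100722) and Ddit4 (chr10:59949669-59951834) restrain growth, the first as an inhibitor of cyclin-dependent kinases and the second as an inhibitor of mTORC1 signalling. Cdkn1a varied little, from 3.98 to 4.71 CPM in control and from 3.84 to 5.34 CPM in CUS mice (log2 fold change -0.03, SE 0.12, adjusted p = 0.919). Ddit4 was at 2.34, 4.21, 4.86 and 6.84 CPM in controls and at 3.84, 3.31, 4.18, 4.80 and 6.96 CPM in CUS mice. Both groups held low and high mice, and the fitted difference was 0.01 (SE 0.27, adjusted p = 0.984).

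Other receptor targets and the receptors themselves were read from 2 lists, chosen with earlier results of these data known. Of 22 other targets, 20 could be tested in the bulk libraries, and 2 were called, both lower in CUS, where 2.13% of all genes were called lower. Before adjustment, 6 of the 20 had p under 0.05 by edgeR's quasi-likelihood test, all lower in CUS. Of all genes, 21.5% had that in either direction. The median log2 fold change of the 20 was -0.10, and 15 of 20 were negative, but without control replicate 4 the median was 0.03 and 9 were negative. Leaving out control replicate 1 instead gave a median of -0.17 with 16 negative. Dusp1, a phosphatase that ends MAP kinase signalling, fell from 14.2, 12.5, 10.4 and 12.1 CPM in control to 8.35, 8.01, 7.14, 8.18 and 8.95 CPM in CUS mice, so that every CUS mouse was below every control mouse. Its log2 fold change was -0.60 (SE 0.10, adjusted p = 0.0100). Tiparp, an ADP-ribosyltransferase, fell by 0.68 on the log2 scale (SE 0.13, adjusted p = 0.0198), a call that was lost without control replicate 2 (adjusted p = 0.0763) or CUS replicate 5 (adjusted p = 0.0612). Of the classical targets that did not pass, Per1, a clock gene, had a log2 fold change of -0.24 (SE 0.08, adjusted p = 0.115), and Fkbp5 one of -0.04 (SE 0.25, adjusted p = 0.949). Fkbp5 was as variable among control mice, at 26.3, 37.8, 48.7 and 65.7 CPM, as among CUS mice, at 32.8, 32.4, 37.7, 47.1 and 67.1 CPM.

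Of 9 receptors and cofactors, 1 was called, Nr3c2, the mineralocorticoid receptor gene, beside 3.29% of all genes in either direction. It was at 241, 262, 251 and 263 CPM in control and at 220, 218, 231, 206 and 211 CPM in CUS mice, with no overlap, as in 8.76% of all genes. Its fitted log2 fold change was -0.23 (SE 0.05, adjusted p = 0.0399). The call was lost when any of 6 mice was left out: control replicate 2 (adjusted p = 0.130) or 4 (0.0730), or CUS replicate 1 (0.0714), 2 (0.0560), 4 (0.116) or 5 (0.107). The log2 fold change stayed between -0.26 and -0.20 with each mouse left out in turn. Nr3c1, the glucocorticoid receptor gene, had the same fitted change of -0.23 (SE 0.07) with an adjusted p of 0.0781, and it passed without control replicate 3 (adjusted p = 0.0178). The paper, with a likelihood ratio test on the bulk libraries, reported both Nr3c1 and Nr3c2 as significantly lower in CUS mice. Ptges3, a cochaperone of the receptors also called p23, was lower in all 5 CUS mice than in all 4 controls, with a log2 fold change of -0.31 (SE 0.08) and an adjusted p of 0.0510. Some marker lists moved with the groups as well. All 7 excitatory neuron markers were positive, with 1 called, and summed to 2284 to 3211 CPM in control and 3135 to 3264 CPM in CUS mice. Arpp21, the most abundant of them, was at 971 to 1324 CPM in control and 1365 to 1521 CPM in CUS mice. Without Arpp21 the CUS sums lay inside the control range, at 1695 to 1804 CPM against 1313 to 1931 CPM. All 8 oligodendrocyte markers were negative, with 1 called, and summed to 303 to 711 CPM in control and 318 to 401 CPM in CUS mice. Summed markers of oligodendrocyte precursors (OPC) ranged from 497 to 604 CPM in control and from 390 to 464 CPM in CUS mice, without overlap, with all 6 markers negative and 2 called. Summed striatal markers ranged from 653 to 1054 CPM in control and from 1142 to 1380 CPM in CUS mice, also without overlap, but most of this sum was Pde10a, a phosphodiesterase gene set apart after its values were seen (603 to 945 CPM in control and 1089 to 1338 CPM in CUS mice). The other 8 striatal markers were all negative and summed to 50.3 to 203 CPM in control and 42.1 to 61.0 CPM in CUS mice. All 5 inhibitory neuron, 6 meningeal fibroblast and 5 newly formed oligodendrocyte markers were negative too, with sums that overlapped. Other lists did not overlap once their most abundant marker was left out. Claustrum markers were then at 67.4 to 76.0 CPM in control and 54.4 to 59.5 CPM in CUS mice. Layer 5 excitatory neuron markers were at 114 to 122 CPM in control and 102 to 112 CPM in CUS mice. Markers of Pv inhibitory neurons went the other way, at 401 to 448 CPM in control and 460 to 520 CPM in CUS mice. The part of these markers in the values of Dusp1, Tiparp, Nr3c2 and Nr3c1 was not tested.

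Across the 9 bulk mice, several of the 10 genes moved together from mouse to mouse, in both groups. Control replicate 4 was the highest control for Sgk1, Tsc22d3, Sult1a1, Plin4, Ddit4, Mt1 and Pdk4, and control replicate 1 was the lowest for Tsc22d3, Plin4, Ddit4, Zbtb16 and Mt1. This pattern was noticed in the values before it was measured. The correlations use log2(CPM + 0.5) without TMM scaling. Over the 45 pairs of members, 44 Pearson correlations were positive, and 9 had an adjusted p under 0.05 in a two-sided exact permutation test. The share of all pairs of genes that were positive or passed was not computed. No pair passed by Spearman's rho after adjustment over the same 45 pairs. Tsc22d3 and Ddit4 had r = 0.91 (exact p = 0.000708, adjusted p = 0.0227) and rho = 0.90 (exact p = 0.00203, adjusted p = 0.0913), and r was 0.78 without control replicates 1 and 4, the 2 mice farthest from the median of Tsc22d3. Sgk1 and Tsc22d3 had r = 0.91 (exact p = 0.00101, adjusted p = 0.0227) and rho = 0.82 (exact p = 0.0108, adjusted p = 0.121), with r = 0.75 without the 2 farthest mice. Tsc22d3 and Plin4 had r = 0.84 (exact p = 0.00525, adjusted p = 0.0480) and rho = 0.80 (exact p = 0.0138, adjusted p = 0.124), with r = 0.85 without the 2 farthest mice and r = 0.98 for deviations from the group means. A further 3 pairs fell to an r of 0.38 to 0.54 without the 2 farthest mice and so rested on them, namely Zbtb16 with Plin4 (0.81 to 0.38), Plin4 with Ddit4 (0.81 to 0.50) and Sgk1 with Ddit4 (0.81 to 0.54). Of 21513 genes with reads in all mice, 0.191% were at least as highly correlated with Tsc22d3 as Sgk1 was, 0.2% as Ddit4, 1.21% as Plin4 and 2.25% as Sult1a1. For the other members this share was 10.0% (Mt1), 12.7% (Zbtb16), 20.4% (Mt2), 25.2% (Pdk4) and 58.5% (Cdkn1a, r = 0.06). A positive r with Tsc22d3 was therefore common among all genes. With Plin4, 1.98% of genes were at least as highly correlated as Tsc22d3 was.

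**Figure D2:**
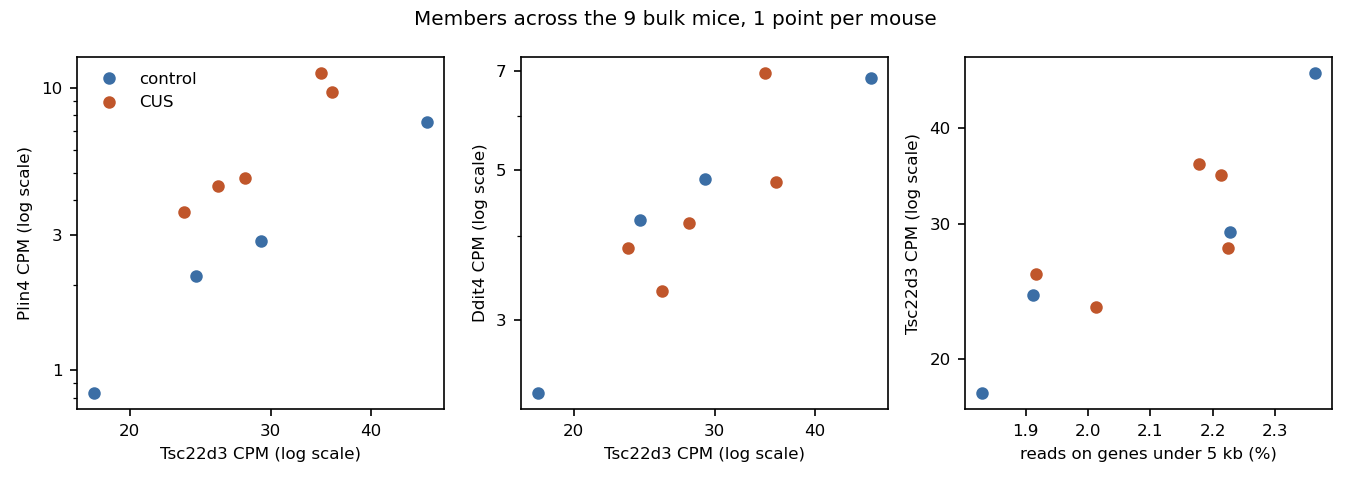
Each point is 1 bulk mouse (blue, 4 control; orange, 5 CUS). The first panel sets Plin4 and the second Ddit4 against Tsc22d3, all in CPM on log axes. The third sets Tsc22d3 (log axis) against the percent of reads on genes shorter than 5 kb (linear axis, 1.83% to 2.36%). The CPM shown are after TMM scaling, whereas the correlations in the text use CPM without it. The points of control and of CUS mice rise from left to right in each panel, and in the first the CUS mice lie above control mice of like Tsc22d3 level.

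The same mice differed in the share of reads that fell on short genes. Genes spanning under 5000 bases took 1.83%, 1.91%, 2.23% and 2.36% of reads in control mice and 2.01%, 1.92%, 2.22%, 2.18% and 2.21% in CUS mice. The 2 lowest shares in controls belonged to replicates 1 and 2, and the groups overlapped. Over 9 mice and 10 genes, this share had r = 0.86 with Tsc22d3 (exact permutation p = 0.00197, adjusted p = 0.0135), 0.84 with Ddit4 (exact p = 0.00307, adjusted p = 0.0135) and 0.82 with Sgk1 (exact p = 0.00405, adjusted p = 0.0135), while for Plin4 r was 0.72 (exact p = 0.0279, adjusted p = 0.0697). By Spearman's rho the smallest adjusted p, shared by those first 3 genes, was 0.104 in the exact test, with rho of 0.80, 0.73 and 0.75. Without control replicates 1 and 2, the farthest mice, r was 0.78, 0.82 and 0.84 for the same genes. Of all genes, 4.06% had an r over 0.7 with this share. Its part in the shared movement of the members was not tested.

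Single-nucleus libraries gave 26698 nuclei after filtering, 13329 from control and 13369 from CUS mice, with 4699542 to 12477099 UMIs (unique molecular identifiers, which count captured transcripts) per mouse. Of these nuclei, 20 barcodes occurred in more than 1 library. CUS replicate 1 stood apart in markers of blood vessels, with a summed endothelial level of 125 CPM against 7.63 to 49.5 CPM in the other 7 mice and a summed mural level of 110 CPM against 16.2 to 44.1 CPM. CUS replicate 2 stood apart in choroid plexus markers, at 247 CPM against 7.79 to 38.5 CPM. Most of that sum was Ttr alone, at 1.51 to 9.56 CPM in control and 13.7 to 240 CPM in CUS mice. Without Ttr, the choroid plexus markers summed to 6.13 to 7.80 CPM in control and 3.32 to 7.10 CPM in CUS mice. Results below are therefore also given without CUS replicate 1 or CUS replicate 2 where they move. The tissue labelled cortex also held 2083 striatal-like nuclei. In summed nuclei, 8 of 9 striatal markers were negative. Without Pde10a, the most abundant, they summed to 549 to 611 CPM in control and 286 to 550 CPM in CUS mice. Pde10a itself was at 483 to 512 CPM in control and 413 to 788 CPM in CUS mice. The part of striatal nuclei in the summed values of the members was not tested.

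With all nuclei of a mouse summed, Sgk1 (6249 UMIs), Mt1 (5027), Zbtb16 (3713), Mt2 (1531), Tsc22d3 (1090), Cdkn1a (693) and Ddit4 (604) passed the filter on low counts. Sult1a1 with 91 UMIs, Pdk4 with 24 and Plin4 with 14 did not, so the largest fitted change in bulk could not be followed here at this depth. None of the 7 was called between CUS and control by edgeR's quasi-likelihood test, and 0 of them had an unadjusted p under 0.05, beside 0% of 16668 genes called and 7.49% with an unadjusted p under 0.05. None of the 7 was called by DESeq2 or by the likelihood ratio test either. The fitted log2 fold changes were positive for 6 of the 7, with a median of 0.23 beside 0.01 over all genes. Without CUS replicate 1 they were positive for 4 of the 7, with a median of 0.0092. Leaving out control replicate 2 moved them the other way, with all 7 positive and a median of 0.34. The median was 0.35 without CUS replicate 3, where 8 members could be tested and all 8 were positive.

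Mt1 was at 47.1, 69.1, 74.5 and 63.0 CPM in control and at 125, 47.9, 75.1 and 82.1 CPM in CUS mice. CUS replicate 1 was the highest of the 8 mice and CUS replicate 2 among the lowest, and the log2 fold change was 0.38 (SE 0.22, adjusted p = 0.686). Mt2 was at 14.6, 19.9, 16.9 and 26 CPM in control and at 51.8, 13.8, 20.1 and 21.9 CPM in CUS mice (log2 fold change 0.51, SE 0.31, adjusted p = 0.695). CUS replicate 1 was again highest, and the same mouse was highest for Cdkn1a, Tsc22d3 and Ddit4. Without it, the log2 fold change was 0.11 for Mt1, -0.02 for Mt2, 0.20 for Cdkn1a, 0.01 for Tsc22d3 and -0.06 for Ddit4. In that mouse, astrocyte-like nuclei held 4.59% of all UMIs, against 1.53% to 3.30% in the other 7, and 461 of its 1007 Mt1 UMIs and 278 of its 417 Mt2 UMIs, while endothelial-like nuclei held 25 and 10. Of the 9 astrocyte markers, 7 were positive in summed nuclei. The part of astrocyte and blood vessel nuclei in these values was not tested.

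Of the rest, Cdkn1a was at 10.1, 7.80, 10.8 and 7.32 CPM in control and at 15.9, 9.76, 12.4 and 9.25 CPM in CUS mice, which gave a log2 fold change of 0.38 (SE 0.20, unadjusted p = 0.0777, adjusted p = 0.679 by edgeR). All 4 CUS mice lay above the control mean, and the groups overlapped. Zbtb16 was at 58.2, 53.0, 48.3 and 56.6 CPM in control and at 62.9, 58.0, 56.0 and 58.6 CPM in CUS mice. Again all 4 CUS mice exceeded the control mean, but the log2 fold change of 0.13 (SE 0.10) had an adjusted p of 0.730, and it was 0.077 without control replicate 3. The log2 fold changes of Tsc22d3 (0.23, SE 0.20), Ddit4 (0.22, SE 0.25) and Sgk1 (-0.01, SE 0.11) had adjusted p-values of 0.774, 0.828 and 0.980. That of Tsc22d3 was 0.090 without control replicate 3, and leaving out control replicate 1 or 2 moved Ddit4 to 0.080 or 0.37.

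**Figure D3:**
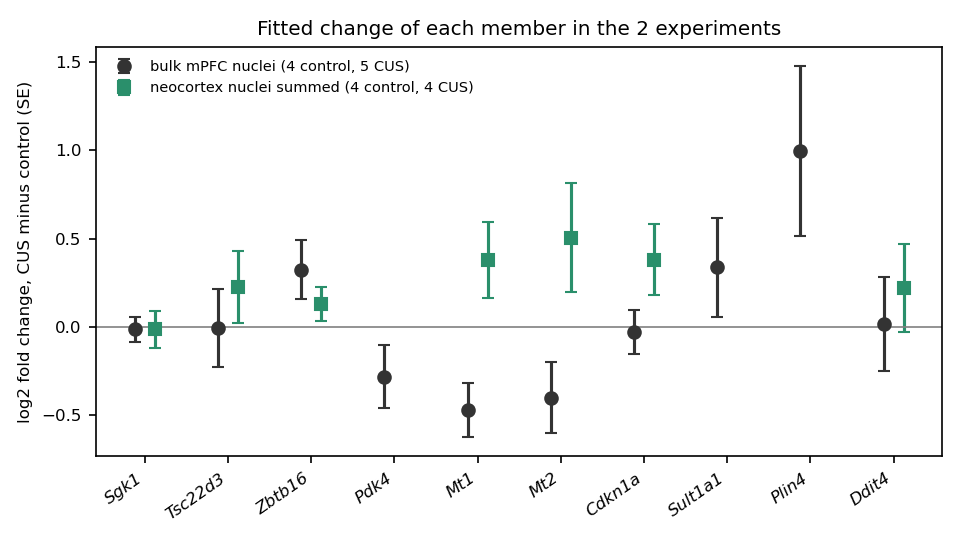
Fitted log2 fold change of CUS minus control (y axis, with SE) for each of the 10 genes in bulk mPFC nuclei (circles, 4 control and 5 CUS mice) and in neocortex nuclei summed per mouse (squares, 4 control and 4 CUS mice; Pdk4, Sult1a1 and Plin4 were too low to test). Mt1 and Mt2 are below 0 in bulk (-0.47 and -0.40) and above 0 in summed nuclei (0.38 and 0.51), and none of the points passed the test.

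The signs of Mt1 and Mt2 were thus opposite in both experiments, which used different mice, ages and dissections, and the difference between experiments was not tested. Dusp1 likewise had a log2 fold change of 0.56 (SE 0.24, unadjusted p = 0.0340, adjusted p = 0.660 by edgeR) in summed nuclei. Among the 20 other targets tested there, 4 had an unadjusted p under 0.05, all higher in CUS (Arrdc2, Arl4d, Per1 and Dusp1). Of all genes, 4.12% had that in the same direction. The list was chosen with earlier results of these data known, so this count cannot serve as a separate test. Of the 20 targets, 16 were positive, and the median was 0.25. Without CUS replicate 1, 15 were positive and the median was 0.096, with Dusp1 at 0.34 and Per1 at 0.22. Arrdc2, an arrestin-domain gene, was higher in all 4 CUS mice (log2 fold change 0.66, SE 0.24, adjusted p = 0.660), and without CUS replicate 1 it was 0.43. Per1 had 0.41 (SE 0.17, adjusted p = 0.660) and Fkbp5 0.16 (SE 0.13, adjusted p = 0.750), the latter between 0.070 without CUS replicate 3 and 0.25 without control replicate 2. Nr3c1 was at 192, 199, 178 and 182 CPM in control and at 140, 160, 168 and 173 CPM in CUS mice, with no overlap, against 4.13% of all genes. Its log2 fold change of -0.23 (SE 0.10, unadjusted p = 0.0335, adjusted p = 0.660 by edgeR) did not pass. Nr3c2 had -0.30 (SE 0.16, adjusted p = 0.686).

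Nuclei were then grouped into 34 classes by clustering, named as a cell type with the suffix "-like" where markers allowed and otherwise by the gene that led the cluster. In those over 200 nuclei, and in all excitatory-like and all inhibitory-like nuclei pooled, 26 groups in all, a gene was tested where its UMIs exceeded 10% of the number of nuclei. Only 5 members were abundant enough anywhere, which gave 62 tests of a member in a class. One was called at an adjusted p of 0.2, 1.613% of the 62, beside 0.101% of 122386 tests of any gene in any class.

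The call was Mt1 in the Baiap3-led cluster, 896 nuclei led by Baiap3, Rmst, Zfhx3 and Hap1 that carried no cell type's marker set. Mt1 was at 38.0, 50.6, 47.6 and 22.5 CPM in control and at 126, 59.5, 161 and 92.3 CPM in CUS mice, resting on 3 to 21 UMIs per mouse. Every CUS mouse was above every control mouse, and the means were 39.7 ± 12.7 and 110 ± 43.7 CPM (SD, n = 4 each). The share of genes in this cluster whose groups did not overlap was not computed. The log2 fold change was 1.30 (SE 0.34, adjusted p = 0.184), where 0.24% of genes in this cluster were called. It passed by edgeR's likelihood ratio test (adjusted p = 0.0442) but not by DESeq2 (0.421), without TMM factors (0.210) or with nuclei of at least 1000 genes (0.464). With mice left out in turn it passed without CUS replicate 2 (adjusted p = 0.102) or 4 (0.146), and not without control replicate 1 (0.397), 2 (0.319), 3 (0.397) or 4 (0.449) or CUS replicate 1 (0.442) or 3 (0.392), while the log2 fold change stayed between 1.08 and 1.49. A test of whether the change in this cluster differed from that in all other nuclei gave 0.97 on the log2 scale with an adjusted p of 0.278, which did not pass, while 0.719% of 4589 genes did. That difference passed without CUS replicate 1 (1.13, adjusted p = 0.192) or CUS replicate 4 (1.06, adjusted p = 0.172).

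Elsewhere Mt1 was positive in 21 of the 23 groups in which it was tested, with log2 fold changes from -0.93 in the Ntng1-led cluster to 0.76 in OPC-like nuclei. These groups come from the same 8 mice, and the pooled excitatory-like and inhibitory-like groups share nuclei with single classes. How many other genes kept 1 sign as often was not counted. In astrocyte-like nuclei, where it was most abundant, Mt1 was at 938, 1274, 1362 and 1022 CPM in control and at 1824, 1098, 1655 and 1669 CPM in CUS mice. Of the 4 CUS mice, 3 were above every control mouse. Here the log2 fold change was 0.44 (SE 0.17, unadjusted p = 0.0120, adjusted p = 0.552 by edgeR). Over all genes, control replicates 1 and 4 deviated with CUS replicates 1 and 2. Control replicates 2 and 3 deviated with CUS replicates 3 and 4. These 2 sets were the best of 18 splits of the same mice and were picked after the fits were seen. Within each set both CUS mice were above both controls for astrocyte-like Mt1, but how many other genes did so was not counted. With the sets as a term the log2 fold change was 0.46 (SE 0.16, unadjusted p = 0.00411, adjusted p = 0.386 by edgeR). A split picked in this way from the same mice cannot serve as a separate test of Mt1. Mt2, tested only in astrocyte-like nuclei, had 0.38 (SE 0.20, adjusted p = 0.835). In all excitatory-like nuclei Mt1 had 0.24 (SE 0.19, adjusted p = 0.641), which became 0.42 with an adjusted p of 0.150 without CUS replicate 2. Sgk1 was tested in 23 groups and Zbtb16 in 13, with no call and 14 and 10 positive fold changes. Tsc22d3, tested only in oligodendrocyte-like nuclei, had a log2 fold change of 0.17 (SE 0.35, adjusted p = 0.999).

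The level of Mt1 in one class of nuclei followed its level in others from mouse to mouse. The levels here are UMIs-per-million of the class without TMM scaling, and correlations use log2(level + 0.5) over 8 mice, with 15 pairs among 6 groups of nuclei. All 15 r were positive, and 11 had an adjusted p under 0.05 in the two-sided exact permutation test, as did 11 rho. Other genes were not correlated between classes in this way, so no share over all genes is given. Mt1 in astrocyte-like nuclei was at 674, 937, 1002 and 743 in control and at 1315, 777, 1181 and 1224 UMIs-per-million in CUS mice. In all excitatory-like nuclei it was at 29.8, 35.5, 47.1 and 33.2 in control and at 57.2, 24.4, 44.6 and 49.8 in CUS mice. CUS replicate 2 was low and CUS replicates 1 and 4 were high in both, so r was 0.89 (exact p = 0.00439, adjusted p = 0.00823) and rho 0.90 (exact p = 0.00456, adjusted p = 0.00856), with r = 0.85 without the 2 farthest mice. Excitatory-like and inhibitory-like nuclei had r = 0.96 (exact p = 0.000124, adjusted p = 0.00130) and rho = 1.00 (exact p = 4.96e-05, the smallest this test can give, adjusted p = 0.000744), with r = 0.97 without the 2 farthest mice. The Baiap3-led cluster passed with astrocyte-like nuclei alone (r = 0.85, adjusted exact p = 0.0138), and its other 4 pairs had r of 0.52 to 0.72 and adjusted exact p from 0.0568 to 0.188. All classes of a mouse share 1 library, and the part of RNA freed from other cells in these levels was not tested.

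**Figure D4:**
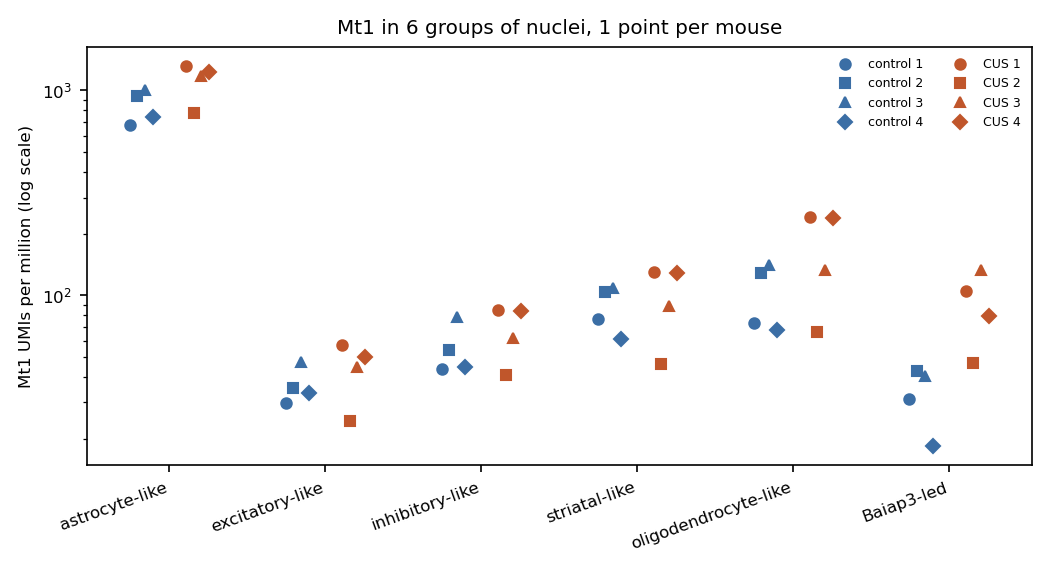
Mt1 level (y axis, UMIs-per-million, log scale) in 6 groups of nuclei, 1 point per mouse, control in blue and CUS in orange, with 1 marker shape per replicate number. Astrocyte-like nuclei lie highest, from 674 to 1315, excitatory-like nuclei lie between 24.4 and 57.2, and in the Baiap3-led cluster all 4 CUS mice are above all 4 control mice.

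The levels of genes that mark astrocytes were also read in other nuclei. The pooled level of Mt1 in excitatory-like nuclei was 4.00% of that in astrocyte-like nuclei, and that of Mt2 was 1.76%, whereas 4 astrocyte markers were at 0.343% to 0.814% (Aqp4, Gja1, Slc1a3 and Gfap) and 4 more, Gpc5, Aldh1l1, Slc1a2 and Slc4a4, at 1.48% to 8.23%. In addition, Mt2 made up 32.9% of Mt1 and Mt2 UMIs in astrocyte-like nuclei (95% Wilson interval 31.1% to 34.8%) and 17.8% in excitatory-like nuclei (16.4% to 19.3%). Across mice this share ran from 24.8% to 41.8% in the first and from 13.5% to 24.5% in the second. In the 4 other groups it was between 14.2% and 17.8%. Across mice it ran from 0% to 25% in inhibitory-like, 9.84% to 25% in striatal-like and 0% to 40% in oligodendrocyte-like nuclei. It ran from 4.55% to 40% in the Baiap3-led cluster, and each of these ranges overlapped that of astrocyte-like nuclei. The intervals cover counting error only.

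Each of the 7 more abundant members had its own order of classes. Levels are pooled UMIs-per-million over the 24 classes with more than 200 nuclei, with the mean and SD over mice that had at least 10 nuclei, and they are compared within a gene and described without a test.

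Mt1 and Mt2 were highest in astrocyte-like nuclei, at 1047 (982 ± 241, n = 8) and 515 (473 ± 146, n = 8). These nuclei were 4.38% of all nuclei and 2.32% of UMIs, and held 32.3% of Mt1 UMIs and 52.1% of Mt2 UMIs. The next class for both was the Nefm-led cluster (150 for Mt1 and 56.6 for Mt2, in 6 mice), whose leading genes include mitochondrial and stress genes, and for Mt1 oligodendrocyte-like nuclei were level with it at 149. The astrocyte-like level stood clear of both in every mouse (lowest 674 against a highest of 359 and 240). The lowest Mt1 level was 29.1 in the Ntng1-led cluster, 36.0 times below the highest, and for Mt2 the ratio was 106. Mfge8, a secreted glycoprotein gene, had the profile most like both across the 24 classes (r = 0.96 with Mt1 and 0.97 with Mt2), followed by Mt2 for Mt1 (0.96) and Ntsr2 for Mt2 (0.96), on log2(level + 10) from the same libraries. Of the 24 Pdk4 UMIs, 15 were also in astrocyte-like nuclei.

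Tsc22d3 and Ddit4 were highest in oligodendrocyte-like nuclei. Tsc22d3 was at 128 there (127 ± 46.8, n = 8), at 68.7 in the Nefm-led cluster, at 63.2 in astrocyte-like nuclei (61.2 ± 27.2, n = 8) and at 37.6 in microglia-like nuclei, with a lowest level of 6.17. The ranges over mice of the first 3 overlapped. Ddit4 was at 40.2 in oligodendrocyte-like nuclei (41.6 ± 32.3, n = 8) and 17.4 in astrocyte-like nuclei, within the spread of the former. With nuclei of at least 1000 genes only, the 142 oligodendrocyte-like nuclei left were under the size limit of 200, but their levels of Tsc22d3 and Ddit4 (115 and 45.5) stayed above those in astrocyte-like nuclei (54.4 and 16.8), the highest of the classes over that limit. Ptgds and Spg20 were most like Tsc22d3 (r = 0.88 and 0.87), and Atp11a and the myelin gene Cnp most like Ddit4 (0.86 and 0.85). Of 14 Plin4 UMIs, 5 were in oligodendrocyte-like nuclei.

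Among these classes, the highest levels of Sgk1 and of Zbtb16 were in neurons. Sgk1 was highest in striatal-like nuclei at 195 (194 ± 31.5, n = 8), then in OPC-like nuclei at 170 (169 ± 37.1, n = 8), in Ndnf inhibitory neuron-like nuclei at 143 and in Vip inhibitory neuron-like nuclei at 140. The ranges over mice of these 4 classes overlapped. The means over mice of the Ndnf and Vip classes (140 and 148) lay below the lowest striatal-like mouse (154). Microglia-like (128; 126 ± 70.1, n = 8), oligodendrocyte-like (106; 88.9 ± 58.9, n = 8) and layer 2/3 excitatory neuron-like nuclei (99.6; 98.0 ± 11.7, n = 8) overlapped in the middle of its order. Its lowest levels were 15.5 in astrocyte-like and 15.0 in claustrum-like nuclei. Zbtb16 was highest in Vip inhibitory neuron-like nuclei at 255 (257 ± 71.6, n = 8), followed by Ndnf inhibitory neuron-like nuclei at 200 (200 ± 42.6, n = 8) and the excitatory Tshz2-led cluster at 127 (129 ± 23.5, n = 8). The first of these overlapped in their range over mice, and Zbtb16 fell to 5.20 in striatal-like nuclei and 4.41 in the Ntng1-led cluster, a ratio of 58.0 between highest and lowest. So the striatal-like class was at the top for Sgk1 and next to last for Zbtb16. Sik2 and Cnot2 were most like Sgk1 (r = 0.67 and 0.66), and Apba1 and Herc3 most like Zbtb16 (0.77 and 0.68).

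Cdkn1a was highest in excitatory neurons, at 22.4 in the Slc26a4-led cluster (22.5 ± 9.74, n = 8), 16.7 in the Scn7a-led cluster and 15.8 in claustrum-like nuclei, which lay within each other's spread. Its lowest level was 0.934 in layer 5 excitatory neuron-like nuclei, where it rested on 3 UMIs. Cpne5 and Cpne9 had the most similar profiles (r = 0.71 and 0.70).

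**Figure D5:**
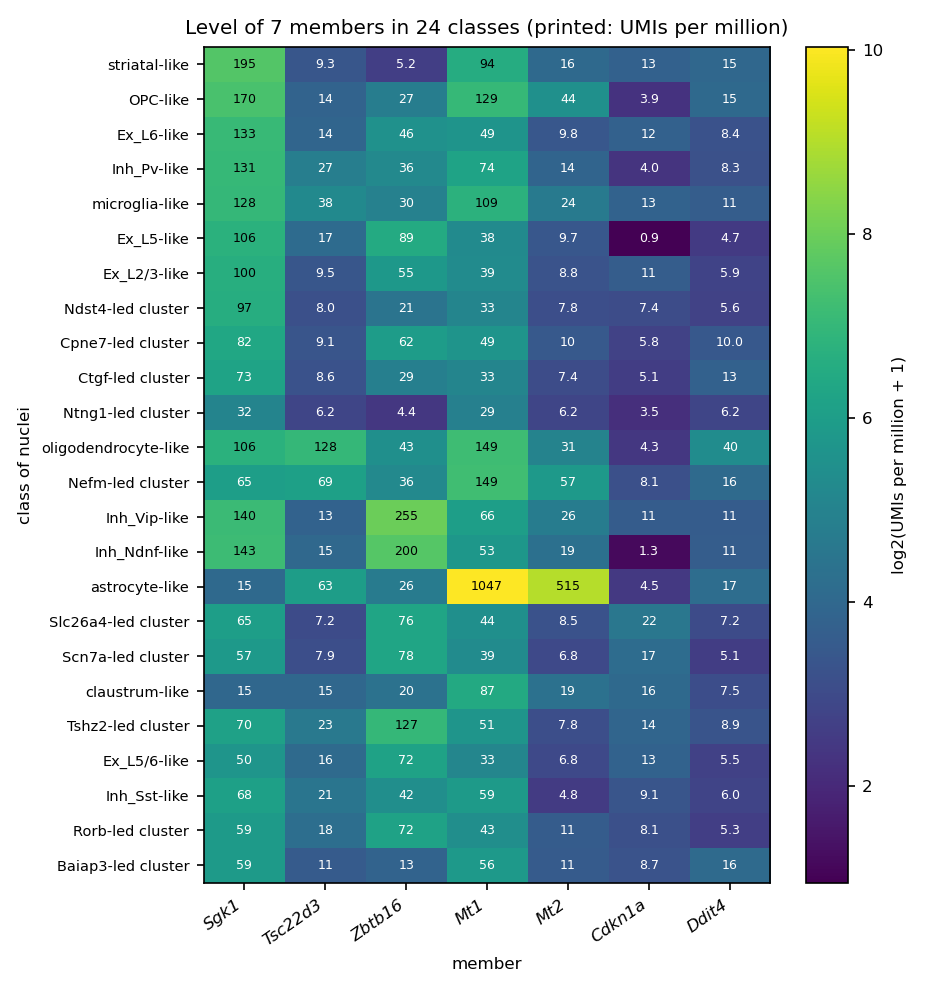
Pooled level of 7 members (columns) in 24 classes of nuclei (rows), printed as UMIs-per-million and coloured on a log2 scale. Mt1 and Mt2 peak in astrocyte-like nuclei (1047 and 515), Tsc22d3 and Ddit4 in oligodendrocyte-like nuclei (128 and 40.2), Zbtb16 in Inh_Vip-like nuclei (255), Sgk1 in striatal-like nuclei (195) and Cdkn1a in the Slc26a4-led cluster (22.4).

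Classes under 200 nuclei were small and left out of the orders above, but held high levels of some members. Endothelial-like nuclei (59) had Mt1 at 358, Ddit4 at 145, Tsc22d3 at 136 and Cdkn1a at 111 UMIs-per-million, on 42, 17, 16 and 13 UMIs, but 25 of the Mt1 UMIs came from CUS replicate 1, only 2 mice had at least 10 of these nuclei, and in 1 of those Ddit4 and Cdkn1a were at 0. Sgk1 was at 404 in the Drd3-led cluster (62 nuclei, 32 UMIs) and at 247 in newly formed oligodendrocyte-like nuclei (77 nuclei, 28 UMIs), where the means over the 2 and 4 mice with at least 10 nuclei were 457 ± 195 and 195 ± 114. The Bnc2-led cluster (56 nuclei) had Tsc22d3 at 362 on 29 UMIs and 13 of the 91 Sult1a1 UMIs.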

How the data were processed

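Per the labels and methods, the authors mapped reads to mm10 with STAR. They deposited raw read counts per gene for each bulk mouse and raw UMI counts per gene and barcode for each single-nucleus mouse (exonic and intronic reads on the gene's strand). How intronic reads were counted in bulk is not given in the sources used here.

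The 10 members, the gene lists and the tests were chosen with earlier results of these data known. Nuclei with 600 to 5000 genes, at most 5% mitochondrial UMIs and a scanpy (1.11.5) Scrublet doublet score of at most 0.2 were kept: 26698 of 40000 barcodes, with 4788 (15.2% of the 31486 within the first 2 limits) left out as doublets. Seurat 5.3.0 clustered them (2000 variable genes, 50 components, resolution 1). Counts were summed per mouse, or per mouse and class, and tested with edgeR 4.0.16 (quasi-likelihood, TMM, R 4.3.3). Bulk and all nuclei used filterByExpr and an adjusted p of 0.05, and classes over 200 nuclei used genes with UMIs above 10% of nuclei and 0.2. The methods' batch term for nuclei (2 batches, each with 2 control and 2 CUS mice) was not fitted, because the labels do not give each mouse's batch, so no value within a batch is given. The step was tested on simulated data. Alternatives were the likelihood ratio test, DESeq2 1.42.0, no TMM, another low-count filter, a replicate block, no doublet filter, a minimum of 1000 genes per nucleus, other resolutions, 2 sets of mice read from the data as a term, and each mouse left out. Those for the other targets, the sets and leaving out mice in the class difference were chosen after seeing the data. All 10 members were named, and of other targets and receptors those called, the 3 with the smallest p, Fkbp5, Per1, Nr3c1 and Nr3c2. For each member with 200 or more UMIs, the 2 genes with the most similar class profile were named. Correlations across mice used exact permutation tests over all orders of the mice and adjustment within each family. The Wilson intervals came from scipy 1.17.1. A gene of the astrocyte list is not reported singly here.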

Additional observations from a re-analysis of the deposited data

Results flagged for a closer look

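Sult1a1 in control replicate 4 stood apart from the other control mice in the bulk libraries, at 4.97 CPM where the nearest control had 2.19 CPM. In summed nuclei, which came from other mice, the control mouse numbered 4 also stood apart for Sult1a1, at 2.80 CPM where the nearest had 1.16 CPM. That value rested on 13 UMIs, with 7 to 13 UMIs in the control mice, and Sult1a1 did not pass the low-count filter there. The bulk and the summed-nuclei groups were both flagged because the gap to the nearest mouse was most of the group's range. They were 2 of 44 groups checked, and chance flags about 1 in 20 groups.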

How the results depend on the processing

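Of the bulk counts of members called, 1 (Mt1) replaced 0 under DESeq2, and the range with each mouse left out was 0 to 1. In classes the 1 call became 0 under DESeq2, without TMM factors, with another low-count filter (which dropped Mt1 from the Baiap3-led cluster) and with at least 1000 genes per nucleus, and ranged from 0 to 2 with each mouse left out. The difference between the Baiap3-led cluster and other nuclei ranged from 0.72 to 1.13 with each mouse left out, and passed without CUS replicate 1 (1.13) or 4 (1.06). Other targets called in bulk numbered 2, 3 under DESeq2, and 1 to 2 with each mouse left out. Genes called in bulk numbered 606 (392 lower, 214 higher), 1330 by the likelihood ratio test, 1413 by DESeq2, 822 without TMM factors (619 lower, 203 higher) and 133 to 1508 with each mouse left out. In summed nuclei the count was 0, 3 by the likelihood ratio test, 1 by DESeq2, 113 (81 higher, 32 lower) with the other low-count filter, which kept all 36464 genes, and 0 to 10 with each mouse left out, with 10 (2 higher, 8 lower) without CUS replicate 2. With mice left out, signs turned for bulk Sgk1 (-0.055 to 0.066), Tsc22d3 (-0.19 to 0.32), Cdkn1a (-0.12 to 0.0095), Ddit4 (-0.20 to 0.29) and Fkbp5 (-0.25 to 0.22), and in summed nuclei Sgk1 (-0.11 to 0.055), Mt2 (-0.018 to 0.71) and Ddit4 (-0.063 to 0.37), where Mt2 had the largest change of the members tested. Without TMM factors, bulk Ddit4 was -0.016 and Sgk1 in summed nuclei 0.017, and 0.018 with at least 1000 genes per nucleus. Same-numbered mice had r of deviations of 0.03 to 0.28 in bulk (median 0.10, other pairs -0.056) and -0.32 to 0.33 in nuclei, not over 0.1 in every pair, so the numbers were not taken to pair mice. With the replicate block, bulk calls numbered 238, members called stayed at 0 in bulk, 0 in summed nuclei and 1 in classes, Ddit4 turned to -0.13 and Nr3c2 lost its call (adjusted p = 0.126). The 2 sets of mice named for astrocyte-like Mt1 were read from the data after the fits were seen, as the best of 18 splits (r of deviations between control and CUS mice 0.15 to 0.43 within and -0.45 to -0.033 across them), and the labels name no batch. Over all pairs of mice r ran from -0.40 to 0.43 within and from -0.63 to -0.033 across the sets. With the sets as a term, members called stayed at 0 in summed nuclei and 1 in classes (Mt1 in the Baiap3-led cluster, 1.35, adjusted p = 0.142), and 1 of all genes was called in summed nuclei. The Nefm-led and OPC-like classes could not be fitted with at least 1000 genes per nucleus. The causes were not tested. Pdk4, Sult1a1 and Plin4 were limited by depth in nuclei.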
